A study of Mus musculus with 8 samples.

Results

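The insulin-like growth factor (IGF) axis was described in hair follicle stem cells through 10 genes of the 46517 in the deposited expression table: the proteases Pappa and Pappa2, the ligand Igf1, its receptor Igf1r and the binding proteins Igfbp2, Igfbp3, Igfbp4, Igfbp5, Igfbp6 and Igfbp7. The genes were selected by symbol, except that Pappa was picked because its level was higher in NFIB/X-dKO than in NFIX-cKO. These genes and the pathway list below were chosen with earlier results of these data known, so their tests are not free of that knowledge. Every comparison that shares a library with that choice is therefore given for Pappa as values only. Of the 10 genes, 8 reached the expression minimum for testing, a level of at least 1 TPM in at least 2 libraries, and Pappa2 and Igf1 did not. TPM is a length-corrected transcript level, scaled to the same sum in each library, so it can be compared between genes.

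The 8 libraries, in 4 groups of 2, were made from sorted cells of male mice aged 70 days (P70), whose back skin was in the second telogen, the resting phase of the hair cycle. WT mice (libraries 34 and 82) were littermates with floxed alleles of both genes (NFIBfl/fl and NFIXfl/fl) but no Cre. NFIB-cKO mice (81 and 85) carried Sox9-CreER and NFIBfl/fl, and NFIB/X-dKO mice (33 and 36) carried Sox9-CreER with both floxed pairs. NFIX-cKO mice (32 and 88) carried Sox9-CreER and NFIXfl/fl and also 1 floxed Nfib allele (NFIBfl/+), so they are not a loss of NFIX alone. All groups carried the R26-YFPfl/fl reporter. Sox9-CreER drives recombination in cells that express Sox9, which hair follicle stem cells do. The sort took live cells with CD34 and integrin alpha 6 but without Sca-1 on their surface, and it added a YFP gate for every group except WT. A difference of any group from WT therefore cannot be told apart from that gate and from Cre itself.

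IGFs are small secreted hormones that signal through the receptor kinase IGF1R to growth and survival pathways. Most IGF outside cells is held by binding proteins, which keep it from the receptor. PAPP-A, the product of Pappa, is a secreted metalloprotease that cuts IGFBP4 and IGFBP5 and so frees IGF near the receptor, and PAPP-A2 cuts IGFBP3 and IGFBP5. In skin, IGF1 is made largely by dermal cells, including the dermal papilla under the follicle, and acts on the epithelium.

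Totals of the expected counts ran from 57173266 to 66854625 in the 5 libraries with gene tables, and depth was unknown in WT 34, WT 82 and NFIB-cKO 81. Total Nfib ran from 208.98 to 229.56 TPM in WT, from 232.8 to 293.27 TPM in NFIB-cKO and from 376.85 to 388.57 TPM in NFIB/X-dKO, so it was not lower where it is deleted. Total Nfix read 158.02 and 157.1 TPM in WT, 154.2 and 147.38 TPM in NFIB-cKO, 138.38 and 123.35 TPM in NFIX-cKO and 125.11 and 148.08 TPM in NFIB/X-dKO. Both NFIX-cKO libraries lay below all WT and NFIB-cKO libraries, and NFIB/X-dKO overlapped NFIB-cKO. The deleted part of each gene is not given in the labels, so these totals check no label. All 10 stem cell markers were expressed in every library, and their summed level was lowest in NFIB/X-dKO (9026 and 10270 TPM, against 10670 to 16570 TPM in the other libraries). That sum was mostly Krt15 (7506.72 and 8704.22 TPM in NFIB/X-dKO). Krt15, Krt24, Lhx2, Lgr5 and Tcf7l1 were each lowest in NFIB/X-dKO. Itga6 was highest there (202.01 and 218.04 TPM), and Cd34, Sox9, Nfatc1 and Tcf7l2 overlapped other groups. Ly6a, which encodes Sca-1, stood between 6.46 and 36.95 TPM despite the sort. Library titles carry numbers in the 30s or in the 80s. WT and NFIX-cKO each included both kinds, NFIB-cKO only the 80s and NFIB/X-dKO only the 30s. The labels do not say what the numbers stand for or that the libraries came from separate mice, so p-values measure the spread between these libraries, which may be technical.

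Upstream sequence is shown for a pair of members. Igfbp6 is shown because it was the only member past the test in any of the 6 planned limma comparisons, and Igfbp7 because its level separated the NFIB-deleted from the NFIB-retaining libraries. RefSeq starts on GRCm38.p6 matched 9 of the 10 members, with 10 starts, and Pappa was the member without an entry. NFI proteins bind as dimers to a palindrome of TTGGC and GCCAA, so both strands of the 250 bases before each start were searched for the core TTGGC. Capitals mark a core, and each sequence runs 5′ to 3′ on the strand of its gene. The Igfbp6 window is chr15:102143936-102144185 (plus strand) and the Igfbp7 window chr5:77408046-77408295 (minus strand).
Igfbp6: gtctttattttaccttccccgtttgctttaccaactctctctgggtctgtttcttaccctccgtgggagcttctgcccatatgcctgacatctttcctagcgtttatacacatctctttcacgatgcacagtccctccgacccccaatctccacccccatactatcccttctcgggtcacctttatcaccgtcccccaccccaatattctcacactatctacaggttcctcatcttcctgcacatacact
Igfbp7: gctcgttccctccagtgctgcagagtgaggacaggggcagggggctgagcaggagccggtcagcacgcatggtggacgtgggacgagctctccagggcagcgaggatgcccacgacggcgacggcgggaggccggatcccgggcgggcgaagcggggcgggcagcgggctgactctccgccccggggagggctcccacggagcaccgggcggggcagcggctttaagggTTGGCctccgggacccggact
The Igfbp7 window held 1 core and the Igfbp6 window none. Igfbp5 was the other member with 1, and 0 of the 10 windows held the whole palindrome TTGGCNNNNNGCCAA. Of 32851 windows of this length in the table, 41.5% held a core and 0.0365% the palindrome; cores stood in 2 of the members' 10. These matches describe letters and are not binding sites.

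Pappa (chromosome 4, 65124174 to 65357509, mm10) was low in both groups that keep an Nfib allele by genotype and high in the others. It read 2.02 and 1.21 TPM in WT, 7.75 and 5.03 TPM in NFIB-cKO, 1.97 and 1.68 TPM in NFIX-cKO, and 13.61 and 12.79 TPM in NFIB/X-dKO. No library of NFIB-cKO or NFIB/X-dKO overlapped any of WT or NFIX-cKO, and NFIB/X-dKO lay above NFIB-cKO. From low to high the group means were WT (1.615 ± 0.573, SD, n = 2), NFIX-cKO (1.825 ± 0.205), NFIB-cKO (6.39 ± 1.92) and NFIB/X-dKO (13.2 ± 0.58), and the neighbours WT and NFIX-cKO did not differ beyond their spread.

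By the rule that picked it, Pappa was not chosen on the level in NFIB-cKO or WT, though earlier results of these data were known. Its difference between them was 1.49 ± 0.26 (SE) on the log2(TPM + 1) scale, which understates changes of low genes, and both NFIB-cKO libraries were above both WT libraries. It did not pass the test (limma, fitted over 15434 genes, Benjamini-Hochberg adjusted p = 0.0664, unadjusted p = 0.0006025). The adjusted p was 0.036 after median-of-ratios scaling and 0.0442 with the 30s and 80s as a covariate, both past the threshold of 0.05, and between 0.0672 and 0.234 with single libraries left out. With a pseudocount of 0.1 the limma adjusted p was 0.0724 and without the filter on low TPM 0.183, neither past the threshold. All of these fits also take their spread, and the covariate its series term, from libraries that Pappa was chosen on. In the fit of NFIB-cKO and WT alone, which holds none of them, the SE was 0.32 and the adjusted p 0.103.

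The other Pappa differences are descriptions. On the same scale NFIX-cKO exceeded WT by 0.13 ± 0.26. The level in NFIB/X-dKO exceeded that in WT by 2.46 ± 0.26, in NFIB-cKO by 0.97 ± 0.26 and in NFIX-cKO, the contrast it was picked on, by 2.33 ± 0.26. These comparisons share groups with each other. NFIB/X-dKO and NFIB-cKO share no series, so genotype and number series cannot be told apart in their Pappa difference. That difference was 0.67 ± 0.30 with the series as a covariate and 0.78 ± 0.20 after median-of-ratios scaling. In plain TPM the mean was 8.17 times WT in NFIB/X-dKO and 3.96 times WT in NFIB-cKO. RSEM assigned Pappa 858 and 818 expected counts in NFIX-cKO, 5410 and 5365 counts in NFIB/X-dKO and 2379 in NFIB-cKO 85, from a single annotated transcript. By edgeR on these counts the NFIB/X-dKO difference from NFIX-cKO was 2.61 ± 0.10. The mean of the NFIB-deleted groups (NFIB-cKO and NFIB/X-dKO) exceeded that of the NFIB-retaining groups (WT and NFIX-cKO) by 1.91 ± 0.18, and each side of that contrast held 2 libraries of the 30s and 2 of the 80s.

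**Figure D1:**
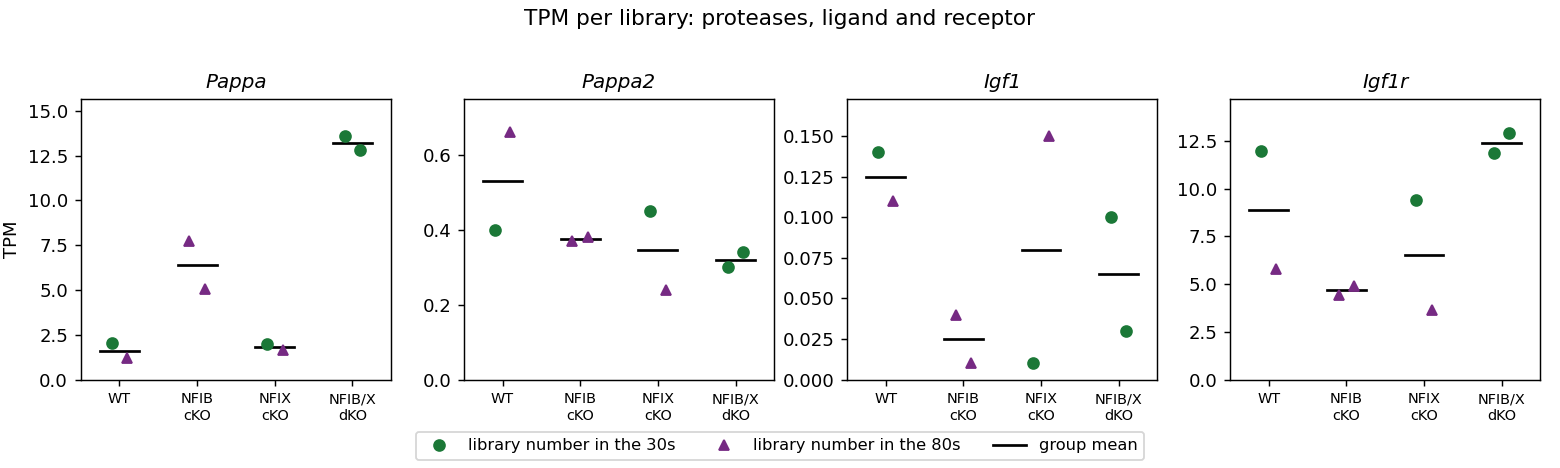
TPM (y axis, linear, from 0, own scale in each panel) of Pappa, Pappa2, Igf1 and Igf1r by group (x axis). Each point is a library, shaped by its number series, and the bar is the group mean. Pappa runs from 1.21 to 2.02 TPM in WT and NFIX-cKO and from 5.03 to 13.61 TPM in the other groups, and Igf1r is higher in every library of the 30s than in any of the 80s.

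Cell type markers were read beside Pappa and Igfbp7. In bulk RNA, fewer cells of a type and less RNA per cell cannot be told apart. Among the 10 stem cell markers some were lower in every NFIB-deleted than in every NFIB-retaining library and the rest overlapped. Those lower were Krt24 (26.72 to 71.06 against 247.57 to 460.24 TPM), Lgr5 (38.56 to 75.7 against 79.4 to 128.86 TPM) and Lhx2 (103.55 to 188.8 against 209.88 to 314.28 TPM). How many of all genes separate in this way was not counted, so these values are descriptions. All 5 inner bulge and companion layer markers were expressed, and their summed level was 1812 and 3122 TPM in WT, 4722 and 6421 in NFIB-cKO, 4489 and 4511 in NFIX-cKO and 6246 and 6156 in NFIB/X-dKO. Within that list Timp3, a protease inhibitor, stood between 18.18 and 23.48 TPM in WT and NFIX-cKO and between 63.95 and 122.79 TPM in the NFIB-deleted libraries. Krt75 went the other way, with 2.86 to 4.98 TPM in NFIB-retaining and 0.94 to 1.72 TPM in NFIB-deleted libraries, and Krt6a, Krt17 and Fgf18 overlapped. Of the 5 sebocyte markers 4 reached 1 TPM in at least 2 libraries, and their sum stood between 106.3 and 249.9 TPM in NFIB-retaining and between 23.01 and 47.58 TPM in NFIB-deleted libraries. The fibroblast collagen gene Col1a1 read 8.27 to 16.65 TPM in NFIB-retaining and 53.32 to 77.31 TPM in NFIB-deleted libraries, whereas Col1a2 read 8.01 to 33.56 TPM and 2.17 to 9.22 TPM and Col6a1 122.98 to 193.61 TPM and 66.48 to 146.25 TPM. The part of these cells in the Pappa and Igfbp7 values was not tested.

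Pappa2, the paralogous protease, was low in all groups. Its levels were 0.4 and 0.66 TPM in WT, 0.37 and 0.38 TPM in NFIB-cKO, 0.45 and 0.24 TPM in NFIX-cKO, and 0.3 and 0.34 TPM in NFIB/X-dKO. These levels rest on 17.9 to 33.6 expected counts per library, and no order of the groups can be read from them. A long non-coding RNA gene, 1600012P17Rik, overlaps Pappa2 on the same strand. By edgeR, which kept Pappa2, its NFIB/X-dKO difference from NFIX-cKO was -0.50 ± 0.46 (adjusted p = 0.648).

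Igf1, the ligand, was barely detected, with 0.01 to 0.15 TPM over the 8 libraries. In the libraries with counts it had 2 to 14 expected counts, which the authors' isoform estimates assigned to transcripts of 1098 to 7052 bases on average. A TPM from so few counts moves with that assignment, so no group difference is given. The antisense gene Igf1os overlaps Igf1, and without strand information reads of the pair cannot be told apart. Igf2, the other IGF ligand, stood between 0.16 and 0.6 TPM, and the insulin genes Ins1 and Ins2 at no more than 0.05 TPM. The fibroblast and dermal papilla markers were mixed. Pdgfra stood at no more than 0.17 TPM, Dcn at no more than 0.34 TPM and Lum at no more than 0.04 TPM. Col3a1 and Sox2 were also low, at no more than 0.45 and 0.03 TPM. Col1a1 (8.27 to 77.31 TPM), Col1a2 (2.17 to 33.56 TPM) and Col6a1 (66.48 to 193.61 TPM) were higher.

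Igf1r (chromosome 7, 67952827 to 68233668) encodes the receptor kinase. It read 11.95 and 5.77 TPM in WT, 4.44 and 4.93 TPM in NFIB-cKO, 9.43 and 3.67 TPM in NFIX-cKO and 11.87 and 12.9 TPM in NFIB/X-dKO. The 4 libraries from the 30s lay between 9.43 and 12.9 TPM and the 4 from the 80s between 3.67 and 5.77 TPM, with no overlap. With groups in the model, Igf1r was lower in the 80s by 1.05 ± 0.13 on the log2 scale (limma adjusted p = 0.0199). Only the WT pair (-0.94) and the NFIX-cKO pair (-1.16) carry that term, and the comparison was added after the values were seen. Of all genes tested, 15.8% differed between the 80s and the 30s in that fit.

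No group difference of Igf1r passed the test by limma. NFIB/X-dKO differed from NFIB-cKO by 1.24 ± 0.43 (adjusted p = 0.273), and those groups share no series, so genotype and number series cannot be told apart in them. NFIB/X-dKO differed from WT by 0.51 ± 0.43 (adjusted p = 0.536), and NFIB-cKO differed from it by -0.72 ± 0.43 (adjusted p = 0.58). The balanced contrast of NFIB-deleted with NFIB-retaining groups gave 0.11 ± 0.30 (adjusted p = 0.909). In order of mean level the groups were NFIB-cKO, NFIX-cKO, WT and NFIB/X-dKO, and the neighbours NFIB-cKO and NFIX-cKO, NFIX-cKO and WT, and WT and NFIB/X-dKO each overlapped.

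Binding proteins made up most of the axis by transcript level. Their summed TPM was 517.7 and 661 in WT, 1138 and 685.1 in NFIB-cKO, 655 and 333 in NFIX-cKO and 723.6 and 658.6 in NFIB/X-dKO. The WT and NFIB/X-dKO ranges overlapped, and NFIB-cKO 81 and NFIX-cKO 88 were the extremes. Igfbp3, Igfbp4 and Igfbp7 were the most abundant in each library. Igfbp6 made up 9.43% and 11.2% of the sum in WT but 2.02% and 2.8% in NFIB/X-dKO, and Igfbp7 made up 27.1% and 25.9% of it in WT and 37.5% and 42.9% in NFIB/X-dKO.

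**Figure D2:**
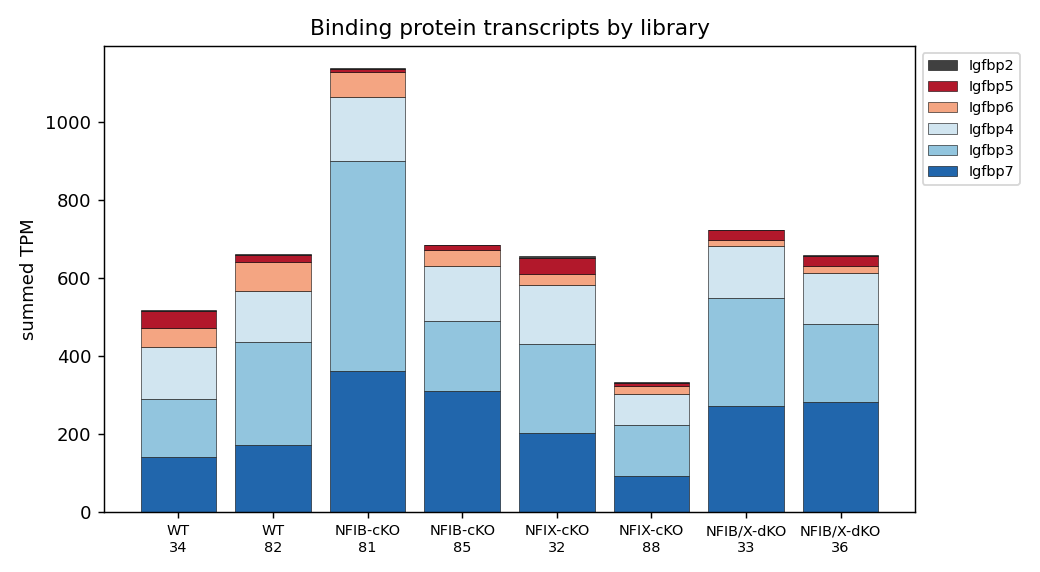
Summed TPM (y axis, from 0) of the 6 binding protein genes in each library (x axis, group and number), with bars stacked by gene. The sums run from 333 in NFIX-cKO 88 to 1138 in NFIB-cKO 81, and Igfbp7, Igfbp3 and Igfbp4 take most of every bar.

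Igfbp6 (chromosome 15, 102144362 to 102149511), which prefers IGF2 over IGF1, was the 1 of 7 members tested, Pappa left out, that changed in NFIB/X-dKO against WT. It read 48.81 and 74.2 TPM in WT, 63.48 and 41.77 TPM in NFIB-cKO, 28.88 and 19.66 TPM in NFIX-cKO, and 14.61 and 18.45 TPM in NFIB/X-dKO. The 4 libraries with NFIX deleted (NFIX-cKO and NFIB/X-dKO) all lay below the 4 others. The number of all genes that separate in this way was not counted. From high to low the means were 61.5 ± 18 TPM (WT), 52.6 ± 15.4 TPM (NFIB-cKO), 24.3 ± 6.52 TPM (NFIX-cKO) and 16.5 ± 2.72 TPM (NFIB/X-dKO). The neighbours WT and NFIB-cKO overlapped, and NFIX-cKO lay above NFIB/X-dKO by 0.51 ± 0.30 on the log2 scale without passing the test (limma adjusted p = 0.44).

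Igfbp6 fell in NFIB/X-dKO against WT by 1.81 ± 0.30 (limma adjusted p = 0.0284). This was 1 of 7 members tested, against 2.88% of all genes called in either direction and 1.26% called lower. The call ended with the 30s and 80s as a covariate (-1.80 ± 0.35, adjusted p = 0.0543), against WT 34 alone within the 30s (-1.52 ± 0.30, adjusted p = 0.0971), without the filter on low TPM (adjusted p = 0.0883), without WT 82 (adjusted p = 0.128), without NFIB/X-dKO 33 (adjusted p = 0.205) and without NFIB/X-dKO 36 (adjusted p = 0.154). Its difference was negative in each of these fits.

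In NFIX-cKO against WT, Igfbp6 differed by -1.30 ± 0.30 (adjusted p = 0.346), and 0 of 7 members passed by limma (1 at an unadjusted p under 0.05, as were 6.81% of all genes), with 0.149% of all genes called. The NFIX-deleted groups together differed from WT and NFIB-cKO by -1.45 ± 0.21 (adjusted p = 0.0894), a comparison added after the values were seen. Its sides are not balanced in number series: libraries 32, 88, 33 and 36 stand against 34, 82, 81 and 85. With the 30s and 80s as a covariate the difference was -1.43 ± 0.27 (limma adjusted p = 0.192). In the fit without the covariate 0 of 7 members passed by limma (1 at an unadjusted p under 0.05, as were 13% of all genes), with 0.136% of genes called. In NFIB/X-dKO against NFIB-cKO, Igfbp6 differed by -1.59 ± 0.30 (adjusted p = 0.175), where 0 of 7 members passed (2 at an unadjusted p under 0.05, as were 17.2% of all genes) and 0.227% of all genes did. Those groups share no series, so genotype and number series cannot be told apart in them. With the series as a covariate the Igfbp6 difference was -1.56 ± 0.45 (limma adjusted p = 0.599). The Igfbp6 difference of NFIB/X-dKO from NFIB-cKO and that of NFIX-cKO from WT were apart by -0.29 ± 0.43 (adjusted p = 0.768), also added after the values were seen. NFIX-cKO also carries 1 floxed Nfib allele and differs from WT by Cre and the YFP gate, so these are not the same loss in 2 settings. In that contrast 0 of 7 members passed by limma (1 at an unadjusted p under 0.05, as were 9.43% of all genes), with 0.117% of genes called. In NFIB-cKO against WT its difference was -0.22 ± 0.30 (adjusted p = 0.841).

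Fibroblast and dermal papilla markers had their lowest sum in the same group as Igfbp6. The summed TPM of the 8 markers was 218.1 and 187.3 in WT, 233.1 and 202.8 in NFIB-cKO, 168 and 165.4 in NFIX-cKO and 127.7 and 134.7 in NFIB/X-dKO. Only 3 of the 8, Col6a1, Col1a1 and Col1a2, reached 1 TPM in at least 2 libraries. Col6a1 alone held 193.61 and 161.85 TPM in WT and 71.94 and 66.48 TPM in NFIB/X-dKO. Col1a2 was also lower there (2.17 and 2.81 TPM, against 11.76 and 8.01 TPM in WT). Col1a1 went the other way, with 53.32 and 65.13 TPM in NFIB/X-dKO against 12.21 and 16.65 TPM in WT. The defining fibroblast genes Lum, Pdgfra, Dcn and Col3a1 stood at no more than 0.45 TPM in any library. Immune markers, 2 of 5 at 1 TPM or more in at least 2 libraries, summed to between 26.02 and 31.11 TPM in WT and NFIB-cKO and between 10.62 and 19.53 TPM in NFIX-cKO and NFIB/X-dKO, mostly from Cd68, with Ptprc at no more than 0.61 TPM. Cd207, the other immune marker at that level, overlapped between these sets, at 0.69 to 2.35 TPM and 1.11 to 2.97 TPM. The part of these cells in the Igfbp6 values was not tested.

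**Figure D3:**
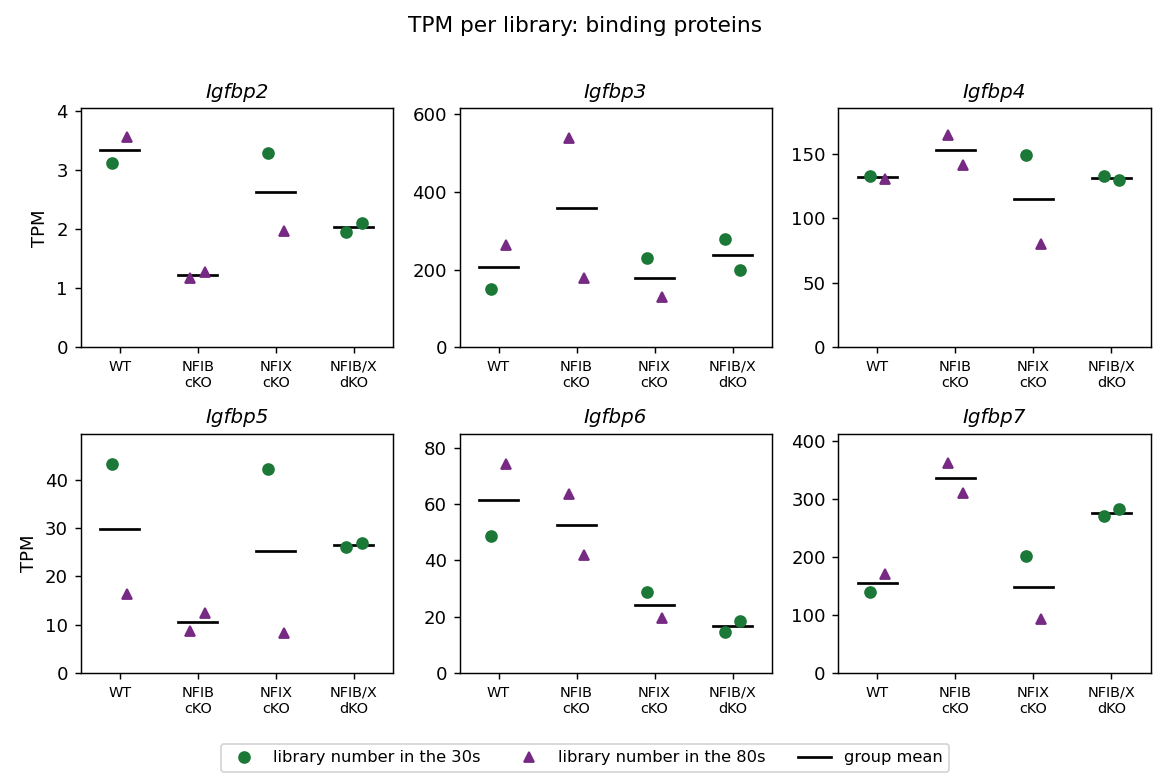
TPM (y axis, linear, from 0, own scale in each panel) of the 6 binding protein genes by group (x axis). Each point is a library, shaped by its number series, and the bar is the group mean. Igfbp6 is below 30 TPM in the 4 NFIX-deleted libraries, Igfbp7 is above 270 TPM in the 4 NFIB-deleted libraries, and Igfbp5 differs between the 30s and the 80s in WT and NFIX-cKO.

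Igfbp7 (chromosome 5, 77349240 to 77408041), a secreted protein that binds IGFs only weakly and also binds insulin, was high in both NFIB-deleted groups. It read 140.35 and 171.53 TPM in WT, 361.6 and 310.57 TPM in NFIB-cKO, 202.28 and 92.89 TPM in NFIX-cKO, and 271.27 and 282.71 TPM in NFIB/X-dKO. The 4 NFIB-deleted libraries all lay above the 4 others, a separation that was not counted over all genes. By mean the order was NFIX-cKO (147.6 ± 77.4), WT (155.9 ± 22), NFIB/X-dKO (277 ± 8.09) and NFIB-cKO (336.1 ± 36.1), and NFIX-cKO and WT overlapped.

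The NFIB-deleted groups differed in Igfbp7 from the NFIB-retaining groups by 1.06 ± 0.23 (limma adjusted p = 0.0697), which did not pass. In that contrast 0 of 7 members passed (2 at an unadjusted p under 0.05, as were 15.4% of all genes), and 2.48% of all genes did. The same difference passed with the 30s and 80s as a covariate (1.06 ± 0.22, limma adjusted p = 0.0436). That fit called 7.87% of all genes. The difference did not pass with a pseudocount of 0.1 (adjusted p = 0.076), without the filter on low TPM (0.185) or after median-of-ratios scaling (0.087). The difference was 1.34 ± 0.12 without NFIX-cKO 32 and 0.78 ± 0.12 without NFIX-cKO 88, so the spread of the NFIX-cKO pair bears on its SE. With any other library left out it ran from 0.985 to 1.13. NFIB-cKO alone exceeded WT by 1.11 ± 0.33 (adjusted p = 0.207), and NFIB/X-dKO exceeded it by 0.83 ± 0.33 (adjusted p = 0.267). Against WT 34 alone within the 30s the latter difference was 0.98 ± 0.12. It was 0.625 with the 30s and 80s as a covariate (limma adjusted p = 0.407) and 0.651 after median-of-ratios scaling (adjusted p = 0.338). Polr2b and Gm34648 overlap Igfbp7 on the opposite strand, and whether the counting used strand is not given in the sources used here.

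Igfbp2 and Igfbp5 are neighbours on chromosome 1 (72824503 to 72852474 and 72857932 to 72874884), facing each other 5457 bases apart. Igfbp2, at 3.12 and 3.56 TPM in WT, read 1.18 and 1.28 in NFIB-cKO, 3.29 and 1.97 in NFIX-cKO and 1.96 and 2.11 in NFIB/X-dKO. Both NFIB-cKO libraries lay below all others. The mean in NFIB-cKO was 0.368 times that in WT, a difference of -0.96 ± 0.24 (adjusted p = 0.137). The NFIB/X-dKO difference from WT was -0.51 ± 0.24 (adjusted p = 0.327).

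Igfbp5, a substrate of PAPP-A, split by number series as Igf1r did. It read 43.18 and 16.4 TPM in WT, 8.77 and 12.35 in NFIB-cKO, 42.12 and 8.23 in NFIX-cKO and 25.96 and 26.98 in NFIB/X-dKO. Each library of the 30s lay above each of the 80s. Its 80s minus 30s term was -1.78 ± 0.24 (limma adjusted p = 0.0229), with -1.34 in the WT pair and -2.22 in the NFIX-cKO pair. Of 8 members tested for that term, Igf1r and Igfbp5 passed, both lower, against 12.6% of all genes lower. No group difference of Igfbp5 passed by limma: it was -1.28 ± 0.71 in NFIB-cKO against WT (adjusted p = 0.541) and -0.01 ± 0.71 in NFIB/X-dKO against WT (adjusted p = 0.994).

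Igfbp4, the other PAPP-A substrate, read 132.72 and 130.93 TPM in WT, 164.31 and 141.63 in NFIB-cKO, 149.48 and 80.5 in NFIX-cKO and 132.5 and 129.5 in NFIB/X-dKO. WT and NFIB/X-dKO were nearly the same, and their difference was -0.01 ± 0.26 (adjusted p = 0.989). Pappa therefore stood at 1.52% and 0.924% of the Igfbp4 level in WT and at 10.3% and 9.88% of it in NFIB/X-dKO, on the TPM scale. Igfbp3, which carries most IGF in blood, read 149.53 and 264.42 TPM in WT, 538.27 and 177.48 in NFIB-cKO, 228.99 and 129.77 in NFIX-cKO and 277.35 and 198.82 in NFIB/X-dKO. All 4 groups overlapped in Igfbp3, and NFIB-cKO 81 was the highest library.

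**Figure D4:**
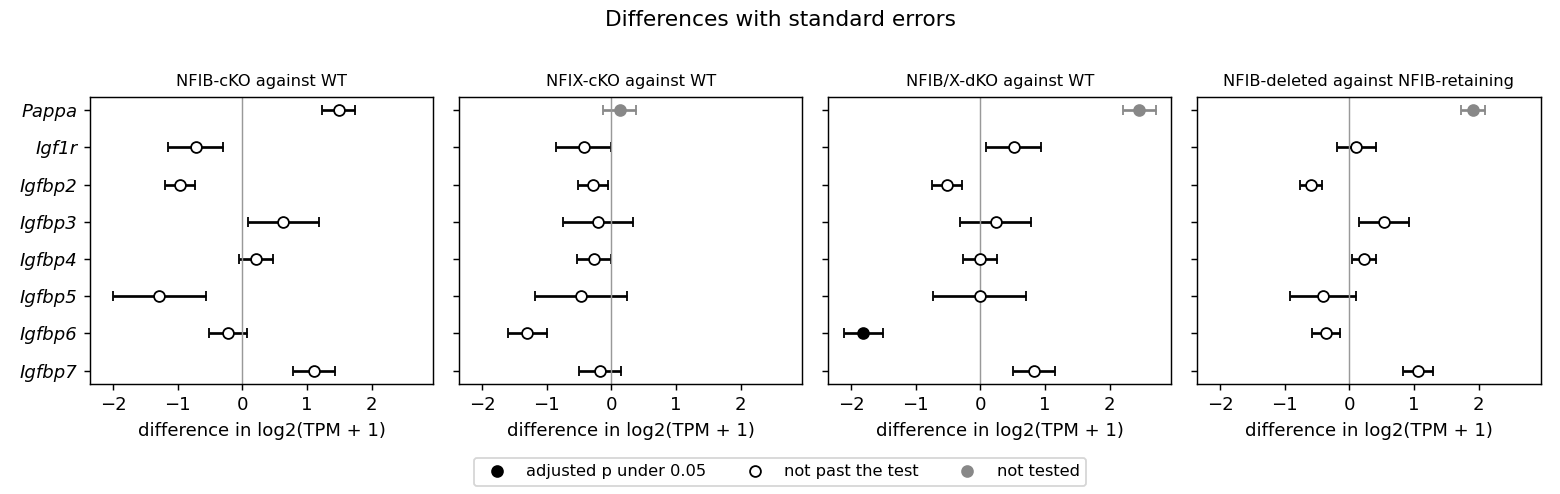
Differences in log2(TPM + 1) (x axis, from limma, with bars of 1 SE) of the 8 members tested (y axis) in 4 comparisons. Filled black points passed the test, open points did not, and grey points for Pappa were not tested. Igfbp6 in NFIB/X-dKO against WT is the 1 filled point, at -1.81.

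In NFIB-cKO against WT as a whole, 0 of 8 members passed by limma (Pappa, Igfbp2 and Igfbp7 had an unadjusted p under 0.05, as did 12.6% of all genes), with 0.719% of all genes called. In NFIB/X-dKO against NFIX-cKO, 0 of the 7 members other than Pappa passed by limma (1 at an unadjusted p under 0.05, as were 14.5% of all genes; Igfbp7 at 1.01 ± 0.33, adjusted p = 0.26), with 0.784% of genes called. By edgeR on rounded expected counts, 0 of 8 passed (1 at an unadjusted p under 0.05, as were 14.7% of all genes), with 0.322% of genes called. That 1 was Igfbp6, with 1214 and 924 expected counts in NFIX-cKO and 562 and 749 in NFIB/X-dKO, a difference of -0.78 ± 0.20 (edgeR adjusted p = 0.239). DESeq2 called it at -0.79 ± 0.26 (adjusted p = 0.0457), in a fit that called 835 genes, 4.47% of those it gave an adjusted p. By edgeR it was called without NFIX-cKO 32 (-0.64 ± 0.16, adjusted p = 0.0286) and without NFIX-cKO 88 (-0.91 ± 0.16, adjusted p = 0.028), where 36.4% and 9.11% of all genes were called. Without NFIB/X-dKO 33 or 36 its adjusted p was 0.9997 and 0.9598, and 0% of all genes were called.

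Of 51 other genes of the pathway, 40 reached the expression minimum: 2 of 3 receptors, 1 of 3 further binding proteins, 2 of 6 partners of the proteases, 8 of 9 adaptors, all genes of the PI3K and growth hormone arms and 0 of 3 ligands. The receptor Igf2r, which takes up IGF2 for breakdown, was the 1 of these 40 past the test in any of the 6 planned limma comparisons, in the contrast where 2.48% of all genes were called. It read 12.84 and 11.3 TPM in WT, 19.62 and 18.24 in NFIB-cKO, 13.31 and 11.8 in NFIX-cKO and 20.08 and 21.58 in NFIB/X-dKO. The NFIB-deleted libraries did not overlap the others, a separation that was not counted over all genes. Igf2r rose in the NFIB-deleted groups by 0.65 ± 0.11 (limma adjusted p = 0.0308). Its difference from WT in NFIB/X-dKO was 0.74 ± 0.15 (adjusted p = 0.0548). The count of 1 in the NFIB contrast went to 0 without WT 82, either NFIB-cKO library, NFIX-cKO 88 or either NFIB/X-dKO library. Insr, the insulin receptor, stood between 6.05 and 12.23 TPM. The 22 genes of the PI3K arm, which carries the signal inside the cell, and the 5 of the growth hormone arm were all expressed, and none passed by limma.

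The list's median difference from WT was 0.02 for NFIB-cKO, -0.09 for NFIX-cKO and 0.22 for NFIB/X-dKO. With NFIB/X-dKO set against NFIB-cKO it was 0.16, with NFIX-cKO in that place 0.32, and it was 0.18 for NFIB-deleted against NFIB-retaining. Over all genes tested the medians in the same order were 0.00, -0.05, 0.16, 0.15, 0.19 and 0.10. The counts at an unadjusted p under 0.05 were 8, 5, 8, 8, 14 and 9 of 40, beside 12.6%, 6.81%, 16.8%, 17.2%, 14.5% and 15.4% of all genes.

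**Figure D5:**
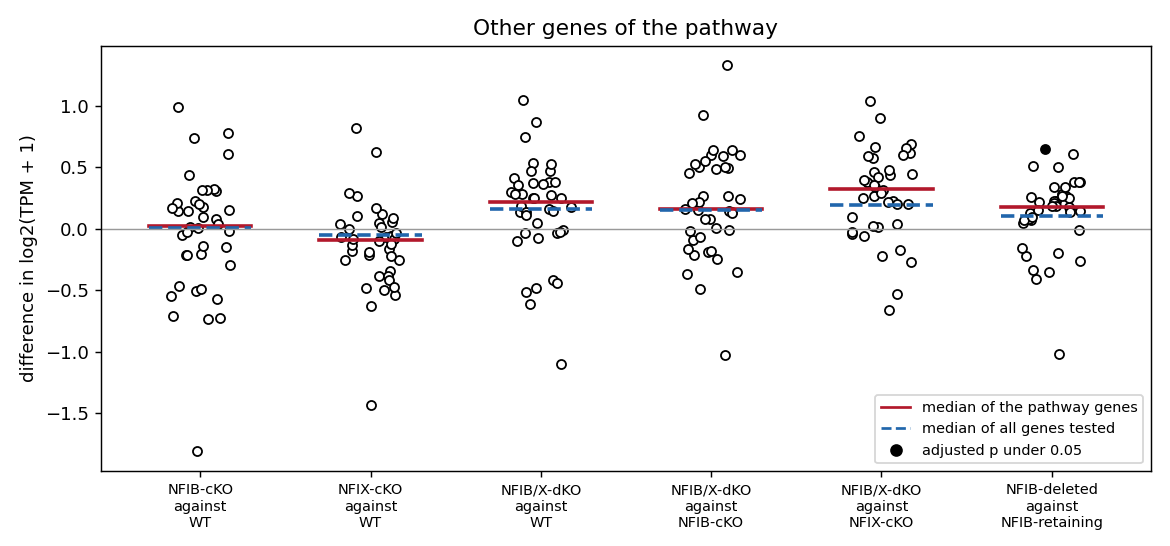
Differences in log2(TPM + 1) (y axis) of the 40 other pathway genes tested, in 6 comparisons (x axis), with 1 point per gene. Red lines are the medians of these genes and dashed blue lines those of all genes tested. Igf2r, at 0.65 in the last column, is the 1 point past the test.

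The genes whose levels followed Pappa most closely over the 8 libraries were Fyttd1, an mRNA export factor (Pearson r = 0.987 on log2(TPM + 1)), Ssbp3 (0.987), the kinase gene Tlk1 (0.983), the adhesion gene Cadm1 (0.983) and Pbxip1 (0.981), of 9653 genes searched. Their changes were much smaller than that of Pappa: Fyttd1 differed by 0.31 and Ssbp3 by 0.43 in NFIB/X-dKO against WT. Those closest to Igfbp6 were Gatsl3 (0.982), the ectonucleotidase gene Entpd2 (0.971) and Aars2, a mitochondrial tRNA synthetase gene (0.965). These values are descriptions over libraries that share groups and number series.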

How the data were processed

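RNA sequencing of sorted hair follicle stem cells was analysed in 8 libraries. The authors deposited a TPM table for all of them, and gene tables with expected counts, TPM and transcript lengths were used for 5. Reads were processed with RSEM 1.2.30 and Bowtie2 2.2.9 on mm10 (GRCm38), per the submitters' processing notes. The annotation release is not given in the sources used here. All columns were matched to libraries by title.

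Limma 3.58.1 (R 4.3.3) was fitted to log2(TPM + 1), with a pseudocount of 1 and a variance trend, on 15434 genes with at least 1 TPM in at least 2 libraries, with all 4 groups in 1 fit (4 residual and 3.1 prior degrees of freedom). The 2 libraries of a group share 1 estimate of the spread with the other groups. Benjamini-Hochberg adjustment ran over all genes tested, at 0.05. Expected counts were rounded to whole numbers for edgeR 4.0.16 (quasi-likelihood test, TMM, filterByExpr, 18349 genes), with the SE taken as the fold change over the root of F, and for DESeq2 1.42.0. The steps were tested on simulated data. Coordinates came from GENCODE on the same build, and upstream sequences from RefSeq on GRCm38.p6.

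The members and lists were chosen with earlier results of these data known. Named genes were the 10 members, pathway genes past the test, and the 5 genes (Pappa) or 3 genes (members past the test) with the highest correlation over the 8 libraries and a mean of at least 5 TPM, without predicted genes. Alternatives were the pseudocount, filter, scaling, groups fitted, number series and each library left out.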

Additional observations from a re-analysis of the deposited data

How the results depend on the processing

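Of the members' differences recomputed under the alternatives, 801 kept their side of the threshold and moved by less than 1 SE or kept a call, 90 without a call moved by more, 20 passed only under the alternative, 6 lost the call and 2 were called with the opposite sign. Among the differences with no call on either side, 53 changed sign. Both called reversals were in the counts of NFIB/X-dKO against NFIX-cKO without NFIX-cKO 32, where Igfbp4 was called at 0.33 and Igfbp5 at 1.30. Without single libraries these differences ran from -0.29 to 0.33 and from -0.77 to 1.30, both lowest without NFIX-cKO 88, so the direction turned on that pair.

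For NFIB-cKO against WT, 0.627% of all genes were called after median-of-ratios scaling and 1.3% with the series covariate. The number of members past the test was 1 in each of these fits (Pappa in both) instead of 0. It ran from 0 to 1 without single libraries (Igfbp7 without NFIX-cKO 32 or 88). For NFIB/X-dKO against WT it was 0 without the low-TPM filter (0.835% of all genes called) and 0 with the covariate (4.03%) instead of 1. Within series it was 1 there too, but the gene was Igfbp7 and not Igfbp6. For NFIB/X-dKO against NFIB-cKO, 3 members (Igf1r, Igfbp5 and Igfbp6) passed in a fit of those groups alone. Those groups share no series, and 21% of all genes were called in that fit. For NFIB/X-dKO against NFIX-cKO it ran from 0 to 1 without single libraries. By counts it was 1 with DESeq2 (4.47% of all genes called) and ran from 0 without NFIB/X-dKO 33 or 36 (0%) through 2 without NFIX-cKO 88 (9.11%) to 5 without NFIX-cKO 32 (36.4%). For NFIB-deleted against NFIB-retaining it was 1 (Igfbp7) with the covariate, where 7.87% of all genes were called. In NFIB/X-dKO against WT, 2.19% of all genes were called in the compared groups alone and 4.03% with the covariate. Pathway genes past the test numbered 1 in each of these fits instead of 0. In NFIB/X-dKO against NFIB-cKO they numbered 11 in the compared groups alone, in the fit that called 21% of all genes. In NFIB-deleted against NFIB-retaining they numbered 0 without the filter and 4 with the covariate instead of 1. Those fits called 0.649% and 7.87% of all genes, against 2.48% in the fit without these changes. Except for the left-out libraries and the smaller fits, which change the samples used, the cause was not tested. No paired analysis was possible because no number is shared between groups. Igf1 and Pappa2 rest on few counts, Igfbp2 on 62 to 141, and depth is unknown in 3 libraries.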
